A study of Mus musculus with 8 samples.

Results

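The growth hormone and IGF axis genes examined here were Ghr, Igf1, Igfals, Igfbp1, Igfbp2, Igfbp3, Socs2, Socs3, Cish and Stat5b. They were chosen by name, as every non-control probe of the array whose gene name was one of these 10 symbols, which gave 20 of 41174 probes. All 20 carried the scanner's mark for a signal well above background on all 4 arrays of both diets, and none was saturated. Expression was measured in whole liver of wild-type male C57BL/6 mice (C57BL/6J in the study's methods) aged 14 to 17 weeks. A group of 4 mice was administered a standard chow (STD) diet and a group of 4 an atherogenic (ATH) diet, rich in fat and cholesterol and containing cholic acid, for 4 weeks. Each mouse had its own 1-colour (Cy3) Agilent array.

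Pituitary growth hormone acts on hepatocytes through GHR, a receptor that has no kinase of its own and signals through JAK2 to the transcription factor STAT5B. STAT5B drives Igf1 and Igfals, and the liver secretes their products, which circulate as a complex of IGF-1, IGFBP-3 and the acid-labile subunit. It also drives Cish and Socs2, whose products restrain the receptor, and because male mice release growth hormone in pulses these early targets can rise and fall within hours.

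Values are log2 processed signal minus the 75th percentile of each array, so 1 unit is a doubling and 0 is the signal at that percentile. Levels are compared between arrays for the same probe only, since different probes bind with different strength. Diets were compared with limma over 31056 detected probes with Benjamini-Hochberg adjustment, and a probe was called at a false discovery rate of 5%, with the 1% used by the study given beside it. The scaling matters for small differences. The 75th percentile was itself 0.45 higher (log2) on the ATH arrays, and after scaling the median of all detected probes was -0.15, against which the values below can be read.

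The share of spots well above background was 72.35% to 77.27% on the STD arrays and 72.87% to 77.76% on the ATH arrays. Each diet had a slide of its own, and an effect of the slide therefore cannot be told apart from the diet. Every one of the 13 detected hepatocyte markers was lower in sign on the ATH diet, and 5 of them passed 5% (Tat, Arg1, Ass1, Tdo2 and Fabp1). Their median log2 fold change was -0.42, and its size and sign followed the scaling. It was 0.02 after quantile normalization, -0.11 relative to the spike-in probes and 0.03 on unscaled signals. A lower number of hepatocytes is therefore not shown by these markers. Of 17 macrophage markers 10 passed 5% upward, led by Gpnmb (not well above background on any STD array), Marco, Trem2 and Lgals3. The endothelial list had 2 of 13 higher (Lyve1 and Fcgr2b), the stellate list 2 of 13 higher (Col3a1 and Ngfr) and the lymphocyte list 0 of 12 (by limma, with 1 lower and 4 higher at an unadjusted p under 0.05). One STD liver, replicate 4, stood apart in acute-phase genes. Its Saa1 value was 10.1 against 4.92 to 5.77 in the other 3 STD livers.

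Of the 20 probes 16 were lower and 4 higher in sign on the ATH diet. A single probe, that of Igfals, was called at 5%, and it was also called at 1%. Over all detected probes 4.94% were called lower and 3.06% higher at 5%, and 0.335% lower and 0.193% higher at 1%. Counted by the brightest probe of each gene, 1 of 10 genes was called lower and 0 higher, beside 5.3% and 4.05% of all genes. An unadjusted p under 0.05 was reached by 4 of the 20 probes, all lower (2 of Igf1, 1 of Ghr and that of Igfals). The diets did not overlap at 2 of the 20 probes, both lower on the ATH diet, beside 13.8% of all probes lower and 6.01% higher without overlap. The median log2 fold change was -0.36 over the brightest probes of the 10 genes and -0.14 over those of all genes. Read against this background, 1 call among 10 genes is no result about the members as a group.

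**Figure D1:**
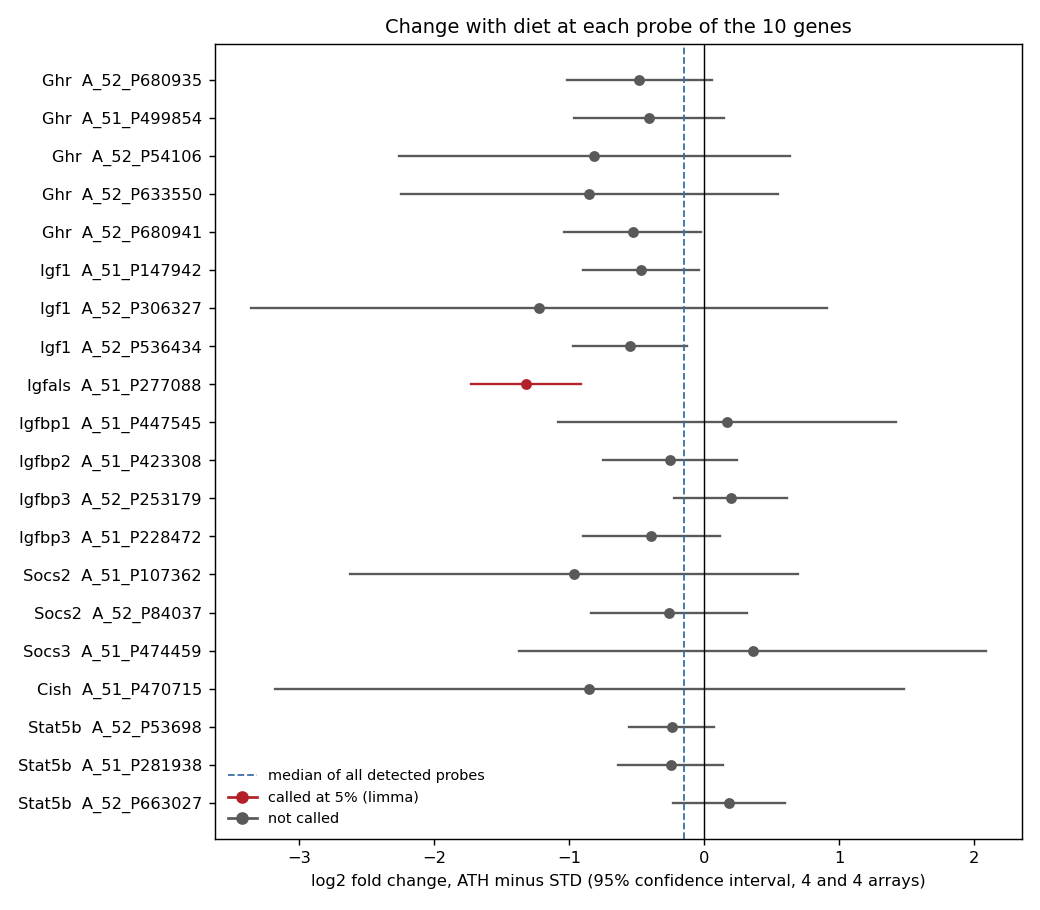
Log2 fold change (ATH minus STD) with its 95% confidence interval from limma at each of the 20 probes, with 4 arrays per diet and a dashed line at the median of all 31056 detected probes (-0.15). Only the Igfals probe is called at 5%, and the intervals of Cish, Socs3, Igfbp1, the brighter Socs2 probe and the clone probes of Igf1 and Ghr are several times wider than its own.

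Igfals, which encodes the acid-labile subunit that holds circulating IGF-1 in its long-lived complex, fell on the atherogenic diet. Its scaled log2 values were 3.70, 3.13, 3.39 and 3.81 in STD replicates 1 to 4, and 2.05, 2.48, 2.09 and 2.14 in ATH replicates 1 to 4. The highest ATH liver lay below the lowest STD liver, so the diets did not overlap. The mean fell from 3.51 ± 0.31 to 2.19 ± 0.20 (SD, n = 4 each), a log2 fold change of -1.32 ± 0.18 (SE, 95% confidence interval -1.73 to -0.91, limma adjusted p = 0.00933), to 0.401 of the STD level. Relative to the median of all probes the difference was -1.17. Over the 22 other settings it ranged from -1.45 to -0.87, and the call at 5% was lost only under the unequal-variance test of the study's methods (adjusted p = 0.0755), under which 22 of all 31056 probes were called. The 1% threshold was less stable. In 15 of the 20 refits Igfals did not pass it, with adjusted p from 0.0105 to 0.0755, among them median scaling, quantile normalization and 7 of the 8 fits with 1 array left out. In bulk liver, fewer hepatocytes and less Igfals RNA per hepatocyte cannot be told apart. The summed hepatocyte markers were 12.32 to 12.39 (log2) on the STD arrays and 11.75 to 12.17 on the ATH arrays, where Alb was saturated on 2 of 4. With each array scaled by the median signal of that hepatocyte list instead, the Igfals difference was -1.21 (limma adjusted p = 0.0242). That scaling did not level the markers, whose median log2 fold change went from -0.42 to -0.31.

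The probe that carries this result lies on the plus strand at chr17:23064462-23064521 in the array design's mm7 assembly, and no annotation of that assembly was used here. It is shown because the call rests on this single probe, beside the probes of Igf1 and Ghr whose diets came closest to it. All 3 are 60-base oligonucleotides on the array, printed in the sense of the mRNA.
Igfals A_51_P277088: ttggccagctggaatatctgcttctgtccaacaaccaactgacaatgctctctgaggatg
Igf1 A_52_P536434: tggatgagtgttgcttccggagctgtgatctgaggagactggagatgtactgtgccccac
Ghr A_52_P680941: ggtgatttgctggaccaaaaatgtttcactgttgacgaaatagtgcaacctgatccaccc
The Igf1 probe lies on the plus strand at chr10:87471884-87471943, and the Ghr probe on the minus strand over chr15:3159367-3166819, a span of 7453 bases against the 60 of the oligonucleotide.

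Promoters of the members were read from RefSeq (assembly GRCm38.p6) for the pattern TTCNNNGAA, the core of STAT binding sites, which reads the same on both strands. The 250 bases before each start were searched. A promoter was listed for 9 of the 10 genes (14 promoters in all), not for Socs2, and the pattern was found in 2 genes, Igfals and Socs3. It was present in 7.02% of 32851 mouse promoters and in 8.13% of 27025 genes. The 3 occurrences are shown with the pattern in capitals, 5′ to 3′ on the strand of the gene, since Igfals is the member that passed the test and carried the pattern before 2 of its 3 listed starts.
Igfals, plus strand, chr17:24877594-24877631: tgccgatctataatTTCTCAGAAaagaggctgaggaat
Igfals, plus strand, chr17:24878158-24878196: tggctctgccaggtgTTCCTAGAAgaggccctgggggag
Socs3, minus strand, chr11:117969497-117969535: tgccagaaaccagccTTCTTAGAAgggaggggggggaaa
The pattern began 236 and 58 bases before the respective Igfals starts and 154 bases before the Socs3 start. These are matches of letters in a short window, and nothing was measured here on the binding of any factor.

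Igf1, which encodes the main hormone that the liver makes in response to growth hormone, was lower on average by an amount that did not pass the test. At its brightest probe (A_51_P147942) the 4 STD livers read 6.73, 6.89, 6.81 and 6.77, and the 4 ATH livers read 6.56, 6.76, 5.97 and 6.04. The STD livers were tightly grouped, ATH replicate 2 lay among them, and ATH replicates 3 and 4 were lowest. The log2 fold change was -0.47 ± 0.19 (SE, 95% confidence interval -0.90 to -0.04, limma adjusted p = 0.147). The second mRNA probe (A_52_P536434) read 6.47, 6.71, 6.59 and 6.58 on the STD diet, and 6.26, 6.45, 5.70 and 5.75 on the ATH diet. Here the diets did not overlap, although ATH replicate 2 came within 0.1 of the lowest STD liver. The difference was -0.55 ± 0.19 (SE), with adjusted p = 0.0988 by limma. Without ATH replicate 2 this probe passed 5% (-0.69, adjusted p = 0.0363), and the brightest probe had an adjusted p of 0.0510. Without any other single array the limma adjusted p was 0.1005 to 0.2294 at this probe and 0.1335 to 0.3166 at the brightest. The size of the Igf1 difference followed the scaling. At the brightest probe it was -0.19 after quantile normalization, -0.16 relative to the spike-in probes and -0.02 on unscaled signals.

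Ghr, the growth hormone receptor gene, had 5 probes, and all 5 were lower in sign. The brightest (A_52_P680935) read 6.22, 6.38, 6.00 and 6.03 on the STD diet, and 6.05, 6.15, 5.18 and 5.32 on the ATH diet. ATH replicates 1 and 2 lay within the STD range and ATH replicates 3 and 4 below it, the same 2 livers that were lowest for Igf1. The difference was -0.48 ± 0.24 (SE, limma adjusted p = 0.218). The other 2 probes of the receptor mRNA gave -0.53 (A_52_P680941, adjusted p = 0.162) and -0.41 (A_51_P499854, adjusted p = 0.299). The remaining 2 probes were designed from cDNA clones placed in the Ghr region, and they varied far more between livers. Probe A_52_P633550 ranged from 3.06 to 4.27 on the STD diet and from 0.99 to 4.01 on the ATH diet, with its lowest value in ATH replicate 3. Probe A_52_P54106 ranged from -0.05 to 1.54 and from -1.92 to 1.17, and its lowest value was in the same liver. Without scaling, the brightest Ghr probe differed by -0.03.

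**Figure D2:**
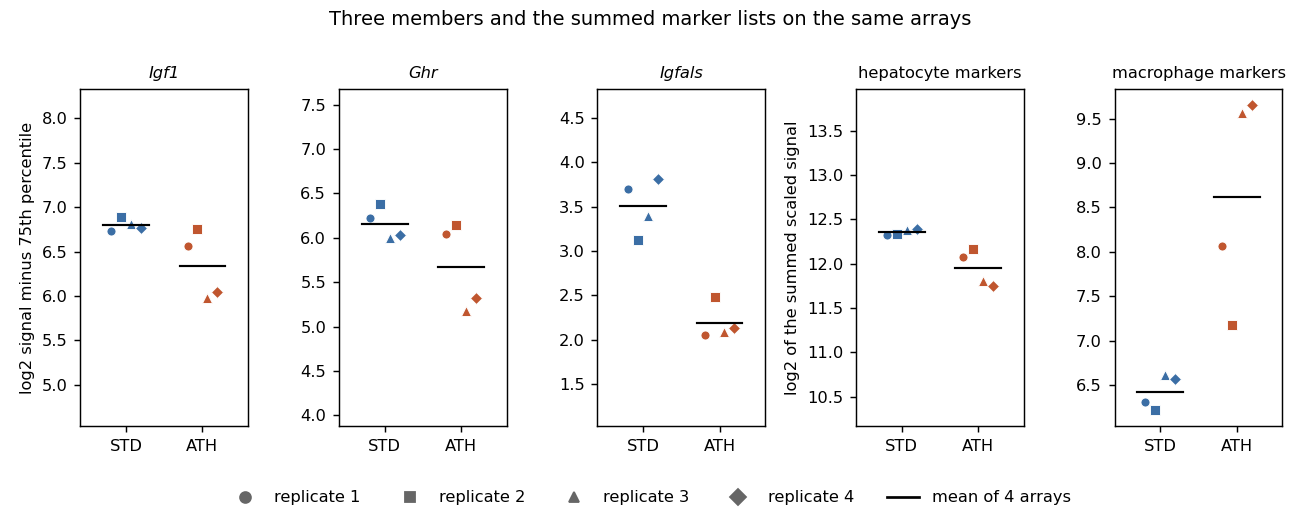
Scaled log2 signal of Igf1, Ghr and Igfals (brightest probe) and the log2 sum of 13 hepatocyte and 17 macrophage markers on the same 8 arrays, with every panel spanning the same number of log2 units, symbols for the replicate and lines at the mean of 4. ATH replicates 3 and 4 are lowest for Igf1, Ghr and the hepatocyte sum and highest for the macrophage sum, whereas all 4 ATH livers are low for Igfals.

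The livers with the least Igf1 and Ghr were those with the most macrophage marker signal. The summed macrophage markers were 6.21 to 6.62 (log2) on the STD arrays, and 8.07, 7.17, 9.57 and 9.66 in ATH replicates 1 to 4. The summed hepatocyte markers were 12.07, 12.17, 11.80 and 11.75 in the same livers. ATH replicate 2, which had the highest Igf1 of its group, had the lowest macrophage and the highest hepatocyte sum of its group. The part of these marker levels in the Igf1 and Ghr differences was not tested. The genes whose profile over the 8 arrays was closest to that of Igf1, among 16558 genes centred on their STD mean, were Mgst1, C1qbp and Atp5o. Their root mean square differences from Igf1 were 0.0404, 0.0444 and 0.0470 (log2), given as a description with no test.

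Stat5b, the transcription factor gene through which the receptor acts, was among the steadiest members. At its brightest probe (A_52_P53698) the STD livers ranged from 3.56 to 3.70 and the ATH livers from 3.14 to 3.60, and the difference was -0.24 ± 0.14 (SE, limma adjusted p = 0.286). The within-diet SD of this probe was larger than that of 19.2% of detected probes. A second probe (A_51_P281938) gave -0.25, and a clone probe (A_52_P663027) gave 0.18. The diets overlapped at all 3. Without scaling the brightest probe turned to 0.21 and with spike-in scaling to 0.07.

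**Figure D3:**
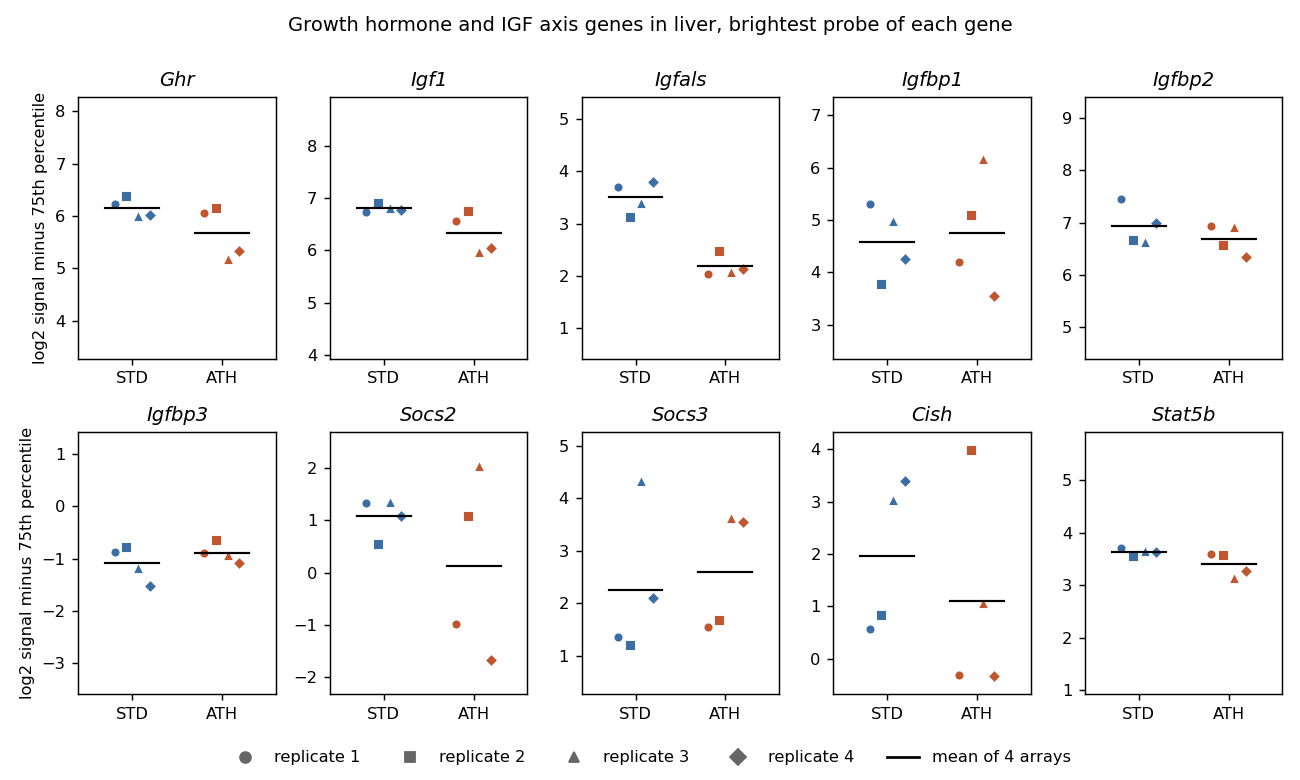
Scaled log2 signal of the brightest probe of each of the 10 genes on the 4 STD and 4 ATH arrays, with every panel spanning the same number of log2 units, symbols for the replicate and lines at the mean of 4. Igfals is the only gene whose diets do not overlap, and Cish, Socs2, Socs3 and Igfbp1 spread by 2 or more log2 units within at least one diet.

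At their brightest probes, Cish, Socs2 and Socs3, which encode restraints on cytokine receptors, varied more between livers of the same diet than nearly all other probes on the array. Cish, an early STAT5 target, read 0.56, 0.84, 3.03 and 3.39 in STD replicates 1 to 4, and -0.31, 3.98, 1.07 and -0.32 in ATH replicates 1 to 4. High and low livers thus occurred on both diets, over a 7.10-fold range on the STD diet and a 19.7-fold range on the ATH diet. The within-diet SD of Cish was 1.77 and exceeded that of 99.94% of detected probes, where the median SD was 0.268. The diet difference was -0.85 with an SE of 1.03 (limma adjusted p = 0.614, 95% confidence interval -3.18 to 1.48), so a change of several fold in either direction could not be distinguished from 0 with 4 livers per diet.

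Socs2, a second target of the same kind, spread mainly on the ATH diet. Its brightest probe (A_51_P107362) read 1.33, 0.55, 1.34 and 1.08 in the STD livers, and -0.98, 1.08, 2.03 and -1.67 in the ATH livers. ATH replicates 1 and 4 were lowest and ATH replicate 3 was highest of all 8. The difference was -0.96 ± 0.73 (SE, limma adjusted p = 0.413), and the within-diet SD exceeded that of 99.4% of probes. A much dimmer clone probe (A_52_P84037) gave -0.26 (adjusted p = 0.529), with within-diet ranges of 0.854 on the STD diet and 0.959 on the ATH diet.

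Socs3, which restrains the IL-6 receptor and is driven mainly by STAT3, read 1.35, 1.21, 4.33 and 2.09 in the STD livers, and 1.55, 1.68, 3.63 and 3.56 in the ATH livers. A single STD liver, replicate 3, held the highest value of all 8, and ATH replicates 3 and 4 followed it. The difference was 0.36 ± 0.76 (SE, limma adjusted p = 0.784), and the within-diet SD exceeded that of 99.6% of probes. The liver with the high acute-phase genes, STD replicate 4, was at 2.09. Of 28 detected genes of the IL-6 and STAT3 list, 4 were called higher and 0 lower at 5% by limma (6 and 3 at an unadjusted p under 0.05). Of all genes 4.05% were called higher and 5.3% lower. The called genes were Tnf (3.16, well above background on 3 of 4 STD arrays), Il1b (2.55), Il1r1 (1.47) and Il6 (1.24). The Il6 probe was dim, at -5.06 to -3.08 over the 8 arrays. None of the acute-phase genes on the list was called, Saa1 among them (2.09, limma adjusted p = 0.203). The part of STAT3 in these calls was not tested. Stat3 itself differed by 0.16 (adjusted p = 0.637). The profiles closest to Socs3 were those of Crybg2, Serpinh1 and Btg2, with root mean square differences of 0.551, 0.604 and 0.618. This measure grows with a gene's own spread, so these values are not compared with those of the genes closest to Igf1.

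The Cish level can be set beside 2 other genes that respond to growth hormone. Bcl6, a transcriptional repressor that growth hormone lowers, read 5.42, 4.37, 4.85 and 2.90 in STD replicates 1 to 4, and 5.71, 2.81, 4.93 and 4.64 in ATH replicates 1 to 4. Its lowest values were in STD replicate 4 and ATH replicate 2, which held the highest Cish values of their diets. Onecut1, a liver transcription factor that growth hormone raises, read 2.52, 2.85, 2.58 and 3.09 in the STD livers, and 1.44, 3.12, 1.81 and 1.26 in the ATH livers, and its highest values were in the same 2 livers. The third liver with high Cish, STD replicate 3 (3.03), had a Bcl6 value of 4.85 and an Onecut1 value of 2.58, inside the range of the other STD livers. STD replicate 4 is the liver with the high acute-phase genes, and Socs2 was 1.08 in both STD replicate 4 and ATH replicate 2, not the highest of either diet. The diet differences were 0.13 for Bcl6 and -0.85 for Onecut1 (limma adjusted p = 0.914 and 0.175). The remaining Igf1 probe (A_52_P306327), designed from a liver tumor cDNA clone upstream of the other Igf1 probes, read -0.72, -0.18, 2.52 and 0.53, and -1.82, 1.98, -1.26 and -1.62. It was highest in STD replicate 3 and ATH replicate 2, and its within-diet SD exceeded that of 99.85% of probes. Its difference was -1.22 ± 0.94 (SE, adjusted p = 0.418). These are values in 8 livers, each sampled at 1 time, and when in a hormone pulse a liver was taken is not in the labels.

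**Figure D4:**
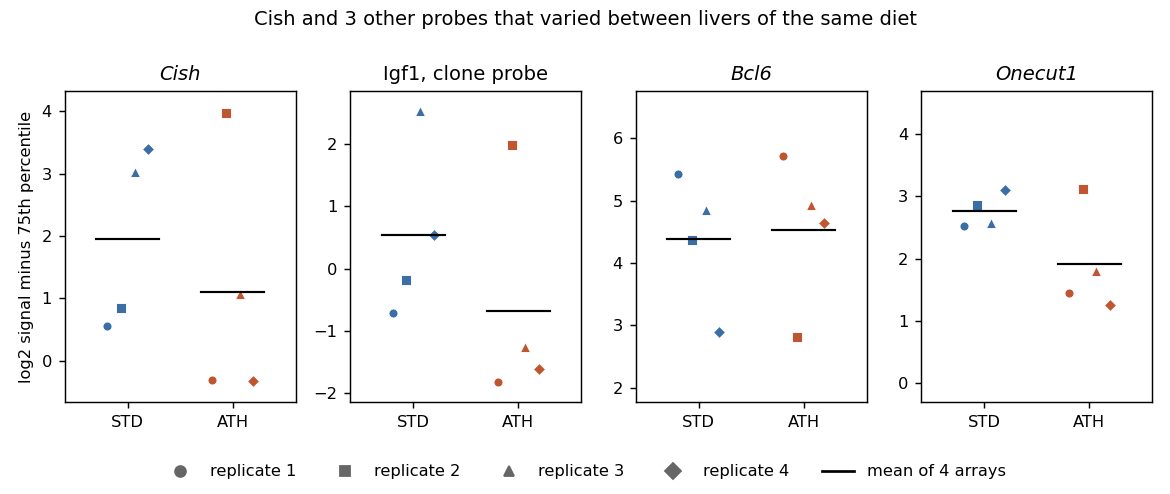
Scaled log2 signal of Cish, of the Igf1 probe designed from a cDNA clone (A_52_P306327), of Bcl6 and of Onecut1 on the 4 STD and 4 ATH arrays, with every panel spanning the same number of log2 units, symbols for the replicate and lines at the mean of 4. STD replicate 4 and ATH replicate 2 have the highest Cish and Onecut1 and the lowest Bcl6 of their diets.

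Among the members, the binding protein genes Igfbp1, Igfbp2 and Igfbp3 showed no change that passed the test in the main setting. Igfbp1, which is raised by fasting and lowered by insulin, read 5.31, 3.78, 4.99 and 4.25 in the STD livers, and 4.21, 5.09, 6.16 and 3.55 in the ATH livers. The highest and the lowest of the 8 values were both on the ATH diet. The difference was 0.17 ± 0.55 (SE, limma adjusted p = 0.864), the within-diet SD exceeded that of 97.8% of probes, and without ATH replicate 3 the sign turned to -0.30. The profiles closest to Igfbp1 were those of Grik2, Olfr1205 and Olfr1263, at root mean square differences of 0.405, 0.464 and 0.468. The Grik2 probe was dim, at -6.72 to -3.35 over the 8 arrays. The measure grows with a gene's own spread, so it does not show whether a gene followed Igfbp1 at a smaller amplitude. Among 15 genes of a list on insulin and hepatocyte nuclear factor targets, 1 was called lower (Tat, -1.05) and 0 higher by limma (5 and 2 at an unadjusted p under 0.05).

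Igfbp2, another binding protein made by mouse liver, ranged from 6.64 to 7.46 on the STD diet and from 6.35 to 6.94 on the ATH diet. Its difference was -0.25 ± 0.22 (SE, limma adjusted p = 0.479), and its sign turned under quantile normalization, relative to the spike-in probes and on unscaled signals. Igfbp3, the carrier in the complex with the acid-labile subunit, is made in liver mostly by cells other than hepatocytes. Its brightest probe (A_52_P253179) ranged from -1.51 to -0.78 on the STD diet and from -1.09 to -0.65 on the ATH diet, with a difference of 0.20 ± 0.19 (SE, adjusted p = 0.507). The second probe (A_51_P228472) ranged from -3.92 to -2.88 and from -4.14 to -3.64, with a difference of -0.39 ± 0.22 (SE, adjusted p = 0.281). The 2 Igfbp3 probes therefore disagreed in sign, neither passed 5%, and the diets overlapped at both. Without scaling the first probe was called higher (0.64, adjusted p = 0.0394).

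Of 58 other genes of the pathway, covering ligands, receptors, signalling proteins, restraints and binding proteins, 52 had a detected probe. At 5%, 2 were called lower and 2 higher, and none passed 1% (by limma, with 11 lower and 8 higher at an unadjusted p under 0.05). Beside the 5.3% lower and 4.05% higher of all genes, these counts are no result about the pathway as a group, and its median log2 fold change was -0.07. Lifr, a receptor for cytokines of the IL-6 family, fell by 1.17 (limma adjusted p = 0.0110). Its STD values of 5.70 to 6.32 and its ATH values of 4.65 to 5.07 did not overlap. Prlr, the prolactin receptor, fell by 1.09 (adjusted p = 0.0434). Jak2, the kinase bound to the growth hormone receptor, rose by 0.65 (adjusted p = 0.0416), and Igfbp7, a binding protein of the vessel wall, rose by 0.53 (adjusted p = 0.0277). The count of lower genes was 1 without any one of the 4 STD arrays, ATH replicate 3 or ATH replicate 4, and 4 without ATH replicate 2. The count of higher genes was 0 without any one of the STD arrays, ATH replicate 3 or ATH replicate 4, 1 without ATH replicate 1 and 5 without ATH replicate 2. With the replicate number as a block, 2 were called lower and 0 higher, so the calls of Jak2 and Igfbp7 were lost.

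The genes of the receptors for IGF-1 and insulin did not pass the test, although their diets did not overlap. Igf1r had values of -3.57 to -3.09 on the STD diet and -2.85 to -2.60 on the ATH diet, a difference of 0.49 (limma adjusted p = 0.0698). For Insr the mean was 1.04 ± 0.05 on the STD diet and 0.59 ± 0.28 on the ATH diet (SD, n = 4 each), a difference of -0.45 (adjusted p = 0.102). Stat5a, the near copy of Stat5b, differed by -0.04 (adjusted p = 0.858). The hormone genes Gh and Igf2, which adult liver hardly expresses, differed by -0.06 and -0.22 with overlapping diets.

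Liver genes whose level is known to follow growth hormone were lower on the atherogenic diet in most cases. The list pools genes that growth hormone raises with genes that it lowers, such as Bcl6. Its counts and median therefore carry no direction of growth hormone action, and the part of the hormone was not tested. Of 37 such genes 29 had a detected probe, and by limma 17 were called lower and 0 higher at 5%, beside 5.3% and 4.05% of all genes. The list was chosen with earlier results of these data known, so this count is a description and no test of the list. At an unadjusted p under 0.05, 23 were lower and 0 higher. At 1%, 3 were called lower, all of them Cyp3a genes of the female-biased list (Cyp3a16, Cyp3a41a and Cyp3a44). The median log2 fold change of the 29 was -0.86, and the diets did not overlap for 17, all lower on the ATH diet, beside 13.8% of all probes. The size of that median followed the scaling. It was -0.61 after quantile normalization, -0.55 relative to the spike-in probes and -0.42 on unscaled signals. On the list taken as male-biased, 11 of 18 were called lower, with a median of -0.77. That list also holds Onecut1, described above only as raised by growth hormone, which was not called. The called genes were led by Cyp4a12a (-1.55), Keg1 (-1.25), Nudt7 (-1.06) and Cyp7b1 (-1.05). Among genes that female mice express more, 6 of 11 were called lower, with a median of -1.31, led by Cyp2b13 (-2.94), Cyp3a16 (-1.82), Cyp3a44 (-1.64) and Cyp3a41a (-1.31). Members of the Mup, Cyp3a and Cyp2b families are near copies, so their probes may share targets and are not separate counts. Sult3a1, a called gene of the female-biased list, and Acot3, which was not called, were well above background on 1 of 4 ATH arrays, and they were tested because of their STD signal. Among genes detected on all 8 arrays 16 were called lower.

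The calls on both the male-biased and the female-biased list were thus all lower, as were the 5 calls among 13 hepatocyte markers. When each array was scaled by the hepatocyte list, the median of the 29 genes was -0.75, and 9 were called lower. The hepatocyte markers themselves still had a median of -0.31 under it. Over all probes the lower calls went from 1534 to 462 and the higher calls from 949 to 276 under that scaling. The 17 calls depended on individual arrays. The count was 6, 8, 6 and 7 without STD replicates 1 to 4, 7 without ATH replicate 3, 6 without ATH replicate 4 and 21 without ATH replicate 2. The part of the hepatocyte markers in these counts was not tested, since the scaling given here did not level those markers.

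**Figure D5:**
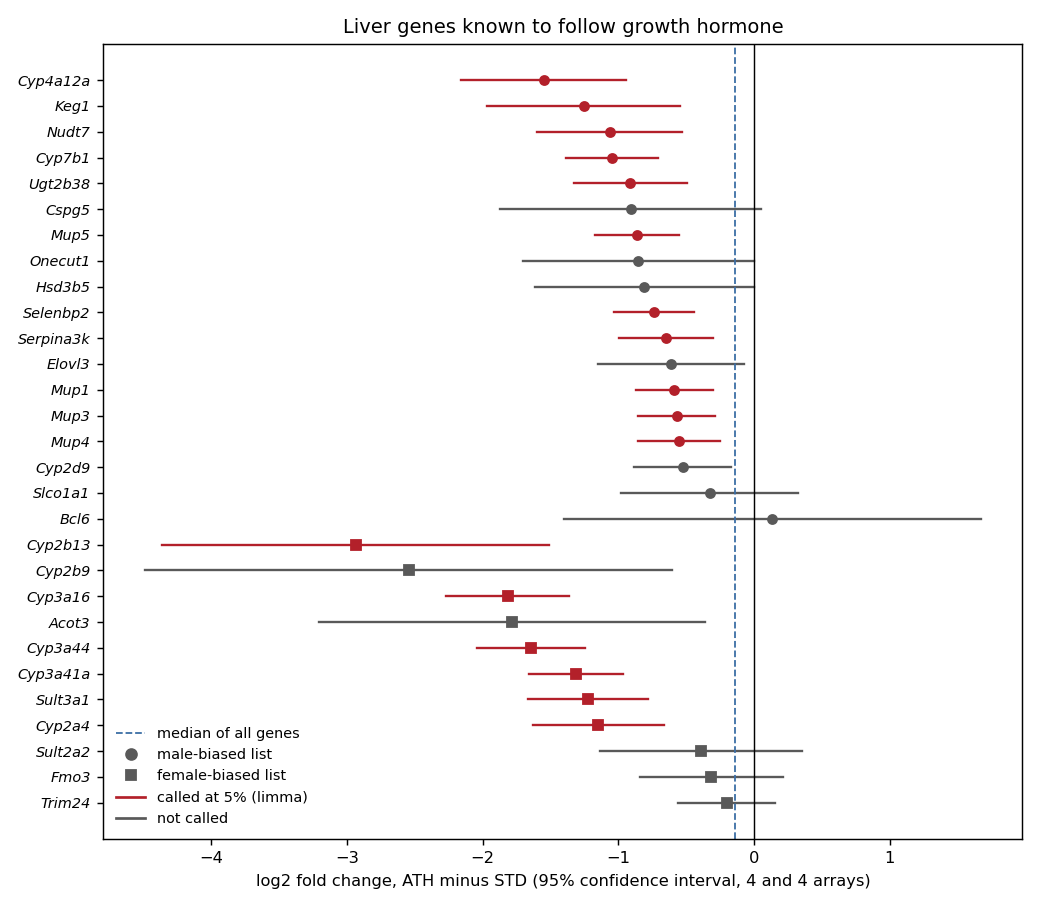
Log2 fold change (ATH minus STD) with its 95% confidence interval from limma for the 29 detected liver genes known to follow growth hormone, with 4 arrays per diet. Circles are genes of the male-biased list and squares genes of the female-biased list, and the dashed line is the median of all genes (-0.14). A total of 17 genes are called lower at 5% and 0 higher, and Bcl6 alone is above 0.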

How the data were processed

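Liver RNA of 4 STD and 4 ATH mice was Cy3-labeled and measured on 8 Agilent 4x44K arrays. The authors scanned the arrays with Feature Extraction version 9.5 at 1-color defaults, and the deposited intensity values had background subtracted and trends removed, with no scaling between arrays, plus flags of 0 or 1 per spot that the authors' software set. A series table of 31642 log2 entries, deposited by the authors, served as an alternative. For detected probes, 100% of its values were within 0.001 of the log2 signal plus constants per array and per probe, and its column medians were -0.0396 to 0.164.

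Groups were taken from the diet in the labels. Spots of a probe were averaged without outliers, and the 75th percentile over 41174 non-control probes was subtracted. A probe was detected when well above background, positive and significant and no outlier on at least 3 of 4 arrays of a diet. Diet was tested with limma version 3.58.1 (R version 4.3.3; lmFit, eBayes, two-sided, Benjamini-Hochberg), after a check on simulated data. Tables and plots used Python version 3.11.15 (numpy 2.4.6, pandas 2.3.3, scipy 1.17.1, matplotlib 3.10.9). A gene was counted by its detected probe with the highest mean. By accession, symbol and synonym 22951, 6659 and 3109 probes were named and 8455 were not.

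The members and gene lists were chosen with earlier results of these data known. All 10 members were named, with every probe. From each other list up to 4 genes per direction with the largest change among those called were named, plus Gh, Igf2, Jak2, Igf1r, Insr, Stat3, Stat5a, Prlr, Bcl6, Onecut1, Il6 and Il1b, and for Igf1, Igfbp1 and Socs3 the 3 genes of closest profile. Fabp1 and Saa1 were named after their values were seen. Alternatives covered background correction (normexp, offset 50), scaling, detection filter, test, threshold, probe choice, a replicate block and each array left out. Scaling by the hepatocyte list was chosen after seeing the data. The number of arrays limits the precision.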

Additional observations from a re-analysis of the deposited data

Results flagged for a closer look

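In each group of 4 arrays the gap of the highest or the lowest array to its neighbour was divided by the range of the group, and values above Dixon's 95% critical value for 4 arrays were noted. Chance alone gives this in about 1 in 20 groups, and 2 of 40 groups of the member probes met it. At the Igf1 clone probe A_52_P306327, ATH replicate 2 (1.98) stood above the other 3 ATH livers (-1.82 to -1.26), with a ratio of 0.852. At the Igfbp3 probe A_51_P228472, ATH replicate 1 (-4.14) stood below the other 3 ATH livers (-3.69 to -3.64), with a ratio of 0.904.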

How the results depend on the processing

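Of 220 comparisons of a member gene's log2 fold change with its value under another setting (22 settings, 10 genes), 210 kept their direction and their side of the threshold. Several settings, such as the 1% threshold and the unequal-variance test, leave the log2 fold change unchanged. With 9 of the 10 genes not called in the main setting, the count is no measure of stability. Igfals lost its call under the unequal-variance test (adjusted p = 0.0755), which left 0 member genes and 0 member probes called. Without scaling, Igfbp3 was called higher, which gave 1 member gene higher and 3 member probes called (Igfals, Igfbp3 and the Stat5b clone probe). Leaving out 1 array at a time gave 1 to 2 member probes called. The sign turned for Igfbp2 (0.0752 with quantile normalization, 0.20 without scaling, 0.0605 with spike-in scaling), Stat5b (0.21 without scaling, 0.0722 with spike-in scaling), Igfbp3 (-0.39 at the probe with the lowest p) and Igfbp1 (-0.10 without STD replicate 2, -0.30 without ATH replicate 3, and -0.30 to 0.57 with 1 array left out). The causes were not tested.

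The median of all detected probes was -0.15 in the main setting, -0.19 with normexp, -0.08 with median scaling, -0.05 with quantile normalization, -0.04 with scaling by the hepatocyte list, 0.16 with spike-in scaling and 0.30 without scaling. The share of calls that were higher was 38.2%, 19.0%, 55.0%, 54.2%, 37.4%, 86.4% and 94.9% in the same order. All probes gave 2483 calls, 6356 with normexp, 7358 without scaling, 1084 without the detection filter, 738 with scaling by the hepatocyte list, 22 with the unequal-variance test, 164 at 1%, and 394 to 3979 with 1 array left out.

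Of the wider pathway, 2 genes were called lower and 2 higher. The lower count was 6 with normexp, 1 with median scaling, quantile normalization, no scaling, spike-in scaling, no detection filter and scaling by the hepatocyte list, 0 with the unequal-variance test and at 1%, and 1 to 4 with 1 array left out. The higher count was 12 without scaling, 5 with spike-in scaling, 4 with normexp, 1 without the detection filter, 0 with the unequal-variance test, at 1% and with scaling by the hepatocyte list, and 0 to 5 with 1 array left out. Of the growth hormone dependent genes, 17 were called lower, against 10 without the detection filter, 9 with quantile normalization, no scaling, spike-in scaling and scaling by the hepatocyte list, 3 at 1%, 0 with the unequal-variance test, and 6 to 21 with 1 array left out. The count of higher genes stayed at 0 in all 22.

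Equal replicate numbers mark equal slide positions. Across probes, the correlation of same-numbered arrays after removing the mean of each diet was 0.0996, 0.2286, 0.1807 and 0.1749. Of 8 arrays 7 correlated best with their own number. Not every pair passed 0.1, and the main fit did not take the numbers to pair the livers. What arrays of the same number shared was not tested. With the replicate number as a block, 1269 probes were called, Igfals among them (adjusted p = 0.0418), with 0 wider pathway genes higher and 14 growth hormone dependent genes lower.

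Dim signals limit Igfbp3 (second probe), Socs2 (clone probe), Gh, Igf2 and Il6. The spread between livers limits Cish, Socs2, Socs3 and Igfbp1, whose diet differences have standard errors of 0.55 to 1.03 against a median of 0.185 over all probes. The slide cannot be told apart from the diet.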
